A study of Mus musculus with 3 samples.

Results

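The 10 genes Atf4, Ddit3, Trib3, Chac1, Asns, Psat1, Phgdh, Slc7a11, Slc7a5 and Slc3a2 were examined as one group, the transcription factor ATF4 and genes of the amino acid response that it is known to drive. They were chosen by symbol, with earlier results of these data known, and make up 10 of the 33696 genes counted. Each symbol matched 1 gene with counts. Ddit3 also matched a second, overlapping gene entry of the same symbol, which held 0 counts in all libraries, and reads that fit both entries may be uncounted.

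The cells were tumor-infiltrating pmel CD8 T cells, which carry a transgenic T cell receptor against a melanocyte antigen. They had been transferred into lymphodepleted C57BL/6 mice bearing subcutaneous B16F10 melanoma, and were sorted on harvest day 18 as live single Thy1.1+CD8+ cells. One group had sIL-2, an IL-2 variant called super IL-2. A second had sIL-2 + IL-21, here also called the combination. The third had IL-2/21-Trikine, an engineered cytokine that brings the IL-21 receptor to the IL-2 receptor beta and gamma chains. The names refer to the cytokines given to the cells before transfer. By the study's methods, the sIL-2 group and the combination group both received IL-2 alone in the mouse, while Trikine-preconditioned cells were followed by Trikine. All groups shared the melanoma line, the lymphodepletion and the low-dose regimen. Each group was 1 library from 1 experiment, and the number of mice behind a library is not given in the sources used here. No test between groups was therefore possible, and all intervals below are 95% intervals for counting error only.

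When amino acids run short or proteins misfold, kinases phosphorylate the initiation factor eIF2, which slows translation overall while allowing more ATF4 protein to be made from existing mRNA. ATF4 then induces genes for amino acid synthesis and import, and, when stress persists, regulators such as CHOP (Ddit3) and TRIB3. In activated T cells the same genes supply serine, glycine and large neutral amino acids during growth, so they are also studied as growth genes. ATF4 activity is set largely at the protein level and is not measured by its mRNA.

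The libraries held 7760 cells with sIL-2, 13299 with Trikine and 9798 with the combination, with medians of 12882.5, 10254 and 14055.5 UMIs (unique molecular identifiers, each counting 1 captured mRNA molecule). In total 92 barcodes occurred in more than 1 library. Cd3e was detected in 90.1% to 96.9% of cells and Cd8a in 80.4% to 89.9%, while Thy1, the gene of the sorting marker, was detected in 63.1% to 75.0%. Cells under 2000 UMIs were most frequent in the Trikine library, at 13.3%, while sIL-2 had 3.43% and the combination 3.72%. Hemoglobin genes summed to 68.7 CPM (a gene's UMIs divided by the UMIs of the library, in the usual counts-per-million unit) with sIL-2 and to at most 0.476 CPM in the other libraries. The myeloid list summed to 212 CPM with sIL-2, 86.4 CPM with Trikine and 213 CPM with the combination. It includes Fcer1g, which a T cell cluster also expressed, so the sum does not measure myeloid RNA alone. Cells with 5 or more UMIs of the other myeloid markers made up 0.348%, 0.414% and 0.153% of the libraries. The melanoma list summed to 2.54 to 9.53 CPM, the B cell list to 1.72 to 2.38 CPM and the NK cell list to 4.53 to 8.64 CPM. The CD4 T cell list summed to 15.8 to 25.9 CPM and the stromal list to 32.1 to 42.9 CPM. Genes induced by tissue dissociation summed to 5302 CPM with sIL-2, 3958 CPM with Trikine and 4437 CPM with the combination, and their part in the results below was not tested.

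At the level of whole libraries, Atf4 and Trib3 were nearly even. Psat1 and Phgdh, with the asparagine synthetase gene Asns, were lower with sIL-2 than with the combination. Ddit3 was highest with Trikine and Slc3a2 highest with sIL-2, in both cases by less than the fold used for calling. Chac1 and Slc7a11 stayed below 1 CPM.

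Atf4 stood at 135 CPM with sIL-2, 131 CPM with Trikine and 131 CPM with the combination. These 3 values lay close together. The log2 ratio was -0.04 for Trikine over sIL-2 (interval -0.07 to -0.01) and 0.00 for Trikine over the combination (interval -0.02 to 0.03). Within classes of cycle UMIs, a measure described with cycling below, Atf4 was less even. In cells under 6 cycle UMIs these ratios were 0.10 and 0.16, and in cells at or over 15 they were -0.12 and -0.17. By cluster, Atf4 was higher with Trikine than with the combination in 2 of 9, and higher with sIL-2 than with the combination in 2 of 9. At the same depth, with each cell thinned to 2000 UMIs, Atf4 was detected in 24.4% of sIL-2 cells, 22.9% of Trikine cells and 23.9% of combination cells. Thinning leaves out cells under the depth used, which left 7494, 11524 and 9434 cells at 2000 UMIs. The set of cells thus also differs between depths. Without thinning the shares were 75.9%, 64.4% and 74.8%, with the shallowest library lowest. No cell class here is known to lack these genes, so the share that free RNA alone would give could not be set beside these shares.

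Ddit3 encodes CHOP, a factor that ATF4 induces and that acts with it under lasting stress. It measured 26.9 CPM with sIL-2, 31.8 CPM with Trikine and 22.8 CPM with the combination. Trikine was the highest of the 3, with a log2 ratio of 0.24 over sIL-2 (interval 0.18 to 0.30) and 0.48 over the combination (interval 0.42 to 0.54). The thinned shares had the same order, 5.99% with sIL-2, 6.96% with Trikine and 5.23% with the combination, but the intervals of sIL-2 and Trikine overlapped. At 1000 UMIs per cell the share was 3.21% with sIL-2 and 3.11% with Trikine, so the shares did not resolve which of these was higher, and the unthinned shares were 29.3%, 27.1% and 25.9%. The level was higher with Trikine than with the combination in 9 of 9 cell clusters that held at least 100 cells in both libraries, and higher with Trikine than with sIL-2 in 7 of 9. Of the clusters, described below, the Trikine and combination intervals lay apart only in the terminal cytotoxic-like, proliferating-like and ISG-like ones. In the others they overlapped. The clusters share the same libraries, and the share of all genes with such counts was not computed.

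Trib3 encodes a pseudokinase that dampens ATF4 and AKT signaling. It was low and even, at 2.24, 2.16 and 2.30 CPM in the same order of libraries, and the intervals of all 3 log2 ratios included 0. It was detected in 0.520%, 0.451% and 0.519% of thinned cells and in 3.20%, 2.33% and 3.44% of unthinned ones. Chac1 encodes an enzyme that degrades glutathione and is a sensitive ATF4 target. It measured 0.338 CPM (44 UMIs) with sIL-2, 0.564 CPM (94 UMIs) with Trikine and 0.726 CPM (122 UMIs) with the combination. At 2000 UMIs per cell it was seen in 0 of 7494 sIL-2 cells, which allows a share of up to 0.0400%, and in 9 cells of each other library, and without thinning in 0.503%, 0.579% and 0.898% of cells.

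Asns, Chac1, Slc7a11 and Trib3 were the members whose promoter windows held the motif TGATGNAAN, a form of the element bound by ATF4 together with a C/EBP factor. The windows run from 250 bases before to 50 bases after a gene's start in RefSeq (GRCm38.p6, searched on both strands), and 9 of the 10 members had one, 2 of them for Psat1. The deposited files may use another build, so these coordinates belong to RefSeq alone. The motif occurred in 4 of the 10 windows of these members and in 3.95% of all 32851 windows. The members were chosen as genes that ATF4 is known to drive, so this difference is no test. A match is a description of the letters and not a measured binding site. The stretches are shown 5′ to 3′ on the gene's strand with the matches in capitals, for Asns at chr6:7693210-7693459 (minus strand), Chac1 at chr2:119350992-119351241 (plus strand), Slc7a11 at chr3:50443614-50443863 (minus strand) and Trib3 at chr2:152344028-152344057 (minus strand). The first 3 stretches end at the base before the gene's start, and the Trib3 stretch lies just after it.
Asns: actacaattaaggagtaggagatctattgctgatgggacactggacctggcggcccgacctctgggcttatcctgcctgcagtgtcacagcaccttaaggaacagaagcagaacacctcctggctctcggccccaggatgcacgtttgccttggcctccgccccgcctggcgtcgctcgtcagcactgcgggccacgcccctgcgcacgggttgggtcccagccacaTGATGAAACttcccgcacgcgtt
Chac1: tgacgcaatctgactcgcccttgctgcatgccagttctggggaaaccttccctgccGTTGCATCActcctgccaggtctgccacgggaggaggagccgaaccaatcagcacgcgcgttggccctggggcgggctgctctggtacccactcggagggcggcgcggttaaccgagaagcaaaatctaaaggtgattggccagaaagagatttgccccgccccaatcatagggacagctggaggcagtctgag
Slc7a11: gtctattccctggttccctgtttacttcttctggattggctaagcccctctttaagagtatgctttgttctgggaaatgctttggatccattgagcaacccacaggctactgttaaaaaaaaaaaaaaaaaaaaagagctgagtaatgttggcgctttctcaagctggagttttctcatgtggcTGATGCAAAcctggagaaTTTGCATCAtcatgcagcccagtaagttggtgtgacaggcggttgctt
Trib3: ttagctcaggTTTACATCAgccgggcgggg
Slc7a11 held 2 matches on opposite strands. In these cells the 4 genes had different patterns, with Asns at 10.4 to 14.96 CPM, Trib3 at 2.16 to 2.30 CPM, and most Slc7a11 UMIs in cells with myeloid markers.

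Asns, which makes asparagine, measured 10.4 CPM with sIL-2, 12.6 CPM with Trikine and 14.96 CPM with the combination. Psat1, the transaminase of the serine pathway, measured 22.0, 27.6 and 37.8 CPM in the same order. Phgdh, which catalyzes the first step of serine synthesis from glucose, measured 47.8, 60.6 and 67.9 CPM. Over whole libraries all 3 genes had the same order, sIL-2 lowest and the combination highest. For sIL-2 over the combination the log2 ratio was -0.52 for Asns (interval -0.62 to -0.43), -0.78 for Psat1 (interval -0.84 to -0.71) and -0.51 for Phgdh (interval -0.55 to -0.46). The thinned share of Psat1-positive cells was 2.99% with sIL-2, 3.84% with Trikine and 5.45% with the combination, that of Phgdh-positive cells 6.73%, 9.01% and 9.86%, and that of Asns-positive cells 1.65%, 1.96% and 2.19%. The Asns intervals overlapped in every comparison, and at 1000 UMIs per cell its shares were 0.72%, 1.21% and 0.96%, with Trikine highest. Without thinning the shares were 22.3%, 22.1% and 34.9% for Psat1, 35.7%, 37.5% and 47.5% for Phgdh, and 11.1%, 11.1% and 17.0% for Asns.

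Slc7a5 encodes the transporter of large neutral amino acids, LAT1, and Slc3a2 its heavy chain, CD98. Slc7a5 measured 36.9 CPM with sIL-2, 36.7 CPM with Trikine and 47.4 CPM with the combination, so the first pair lay together and below the combination (log2 ratio of sIL-2 over the combination -0.36, interval -0.41 to -0.31). Among cells under 6 cycle UMIs, a measure described with cycling below, the ratio was -0.02 for sIL-2 over the combination and -0.06 for Trikine over the combination, so the libraries lay close together there. Slc3a2 had another order, 229 CPM with sIL-2, 196 CPM with Trikine and 190 CPM with the combination. The log2 ratio of Slc3a2 for sIL-2 over the combination was 0.27, and 0.04 among cells at or over 15 cycle UMIs. Over whole libraries the order thus differed between the partners. Their shares of positive cells at 2000 UMIs were 5.68%, 6.25% and 7.41% for Slc7a5 and 38.4%, 33.2% and 32.5% for Slc3a2. Unthinned they were 33.0%, 27.4% and 38.6%, and 88.0%, 74.8% and 84.2%. At 1000 UMIs per cell the Slc7a5 shares were 3.71%, 2.95% and 3.69%, with Trikine lowest. The intervals of sIL-2 and the combination overlapped there, so the order of the Slc7a5 shares depended on depth.

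Slc7a11, the cystine transporter xCT, measured 0.661 CPM with sIL-2, 0.396 CPM with Trikine and 0.226 CPM with the combination. These levels rested on 86, 66 and 38 UMIs in 14, 28 and 20 cells, with up to 19 UMIs in a single cell. At 2000 UMIs it was detected in 6, 8 and 4 cells. Cells with 5 or more UMIs of myeloid markers (10 markers, leaving out Fcer1g, which a T cell cluster also expressed) held 90.7%, 77.3% and 60.5% of the Slc7a11 UMIs, although they were 0.153% to 0.414% of all cells. For the other 9 members these cells held at most 2.49% of the UMIs. Without them, the log2 ratio of Slc7a11 for sIL-2 over the combination went from 1.55 to -0.54, and that for Trikine over sIL-2 from -0.74 to 0.56.

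**Figure D1:**
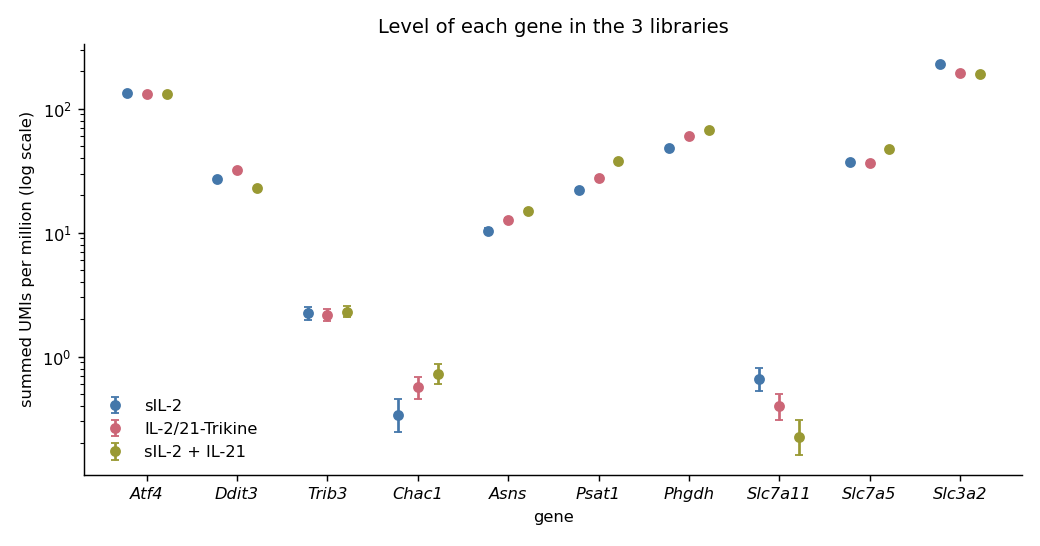
Level of each of the 10 genes in the 3 libraries, in CPM on a log axis, with 1 point per library and bars for the 95% Poisson interval (counting error only). Atf4 lies between 131 and 135 CPM in all 3 libraries, Asns, Psat1 and Phgdh are lowest with sIL-2, and Chac1 and Slc7a11 lie below 1 CPM.

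A gene was called different between libraries when its log2 ratio reached 0.5 in either direction, among genes with a mean of at least 1 CPM. Of the 10 members 8 passed that filter, since Chac1 and Slc7a11 did not. For Trikine over sIL-2, 0 of 8 members were called higher and 0 lower, against 3.45% higher and 7.42% lower of all genes tested. For Trikine over the combination the counts were again 0 higher and 0 lower, against 4.65% and 5.66% of all genes. For sIL-2 over the combination, 0 members were called higher, against 11.3% of all genes, and 3 were called lower (Asns, Psat1 and Phgdh), against 7.29% of all genes. The median log2 ratio over the 8 members was 0.12, -0.125 and -0.20 in these comparisons, and over all genes -0.08, 0.00 and 0.08. The 3 comparisons share libraries. By the thinned shares of positive cells, the intervals of 2 members lay apart and higher for Trikine over sIL-2 (Psat1 and Phgdh) and 1 lower (Slc3a2), against 11.3% and 22.8% of all genes tested. For Trikine over the combination 1 was higher (Ddit3) and 2 lower (Psat1 and Slc7a5), against 10.2% and 14.6%. For sIL-2 over the combination 1 was higher (Slc3a2) and 3 lower (Psat1, Phgdh and Slc7a5), against 21% and 15.6%. Scaling by TMM factors moved the median of all genes for sIL-2 over the combination from 0.08 to -0.02, and the ratios of Asns, Psat1 and Phgdh there became -0.62, -0.88 and -0.61.

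The share of cycling cells, described next, was lowest with sIL-2. Its part in the ratios of Asns, Psat1 and Phgdh was not tested, and the ratios within cycle classes are a description. At the limit of 6 cycle UMIs, the log2 ratio of sIL-2 over the combination in non-cycling cells was -0.45 for Asns, -0.47 for Psat1 and -0.24 for Phgdh, so 0 of the 3 calls remained. In cycling cells it was -0.45, -0.66 and -0.36, and only that of Psat1 remained. Among cells under 15 cycle UMIs the log2 ratio of sIL-2 over the combination was -0.36 for Asns, -0.63 for Psat1 and -0.38 for Phgdh. Among cells at or over 15 cycle UMIs it was -0.51, -0.34 and -0.06. Psat1 alone passed the fold in the first class and Asns alone in the second. The classes at 15 were set after the data were seen. All 3 ratios were below 0 in these 4 classes, while 2 of the 3 calls or more fell short of the fold in each. Of all genes, 5.74%, 4.7%, 6.35% and 2.7% were called lower in these classes, in the order given. A call can fall short by a small move. Both Asns ratios of -0.45 lay inside the interval of its ratio in all cells (-0.62 to -0.43). The place of Trikine differed between classes. For Trikine over the combination, the Phgdh ratio was 0.14 in non-cycling cells at the limit of 6. For Trikine over sIL-2 among cells at or over 15 cycle UMIs, it was -0.004 for Psat1 and -0.08 for Phgdh. Ddit3 for sIL-2 over the combination went from 0.24 in all cells to 0.02 in non-cycling cells at the limit of 6.

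Cycling was scored as the number of UMIs from 43 S phase and 54 G2/M genes after thinning each cell to 2000 UMIs. Cells under that depth, 3.43% with sIL-2, 13.3% with Trikine and 3.72% with the combination, have no score and are in no cycle class. The main limit was 6 cycle UMIs, but it fell inside the larger mode of the distribution, with 16.8% to 23.5% of cells within 1 UMI of it. A second limit of 15, near the lowest point between the modes and chosen after the data were seen, had 1.16% to 2.85% of cells that close. At 6 the cycling share was 49.1% with sIL-2, 61.2% with Trikine and 66.4% with the combination. At 15 it was 13.4%, 25.3% and 34.6%. The proliferation gene Mki67 and the genes Top2a, Mcm5 and Pcna belong to the lists that define these cells, so their ratios are fixed by the rule and only describe it. Over both limits and all libraries the log2 ratio of cycling over non-cycling cells was 3.75 to 4.87 for Mki67, 3.31 to 3.87 for the topoisomerase gene Top2a, 1.88 to 2.93 for the replication gene Mcm5 and 1.18 to 1.61 for Pcna. Cycling cells were also deeper, with a median of 20659 to 28985 UMIs at the limit of 15, against 9785 to 12131 UMIs in the others. At the limit of 6 the medians were 14078 to 17781 UMIs against 9269 to 12140 UMIs. With every cell at 2000 UMIs and the limit of 6, the ratios of cycling over non-cycling cells were 0.79, 0.79 and 0.96 for Psat1. They were 0.61, 0.84 and 0.96 for Phgdh, and -0.06, -0.43 and -0.27 for Ddit3. At full depth the ratios were 0.87, 0.89 and 1.05 for Psat1, 0.97, 0.78 and 1.09 for Phgdh, and -0.12, -0.41 and -0.38 for Ddit3. The equal-depth values fell outside the full-depth interval for Phgdh with sIL-2 (0.89 to 1.05) and the combination (1.01 to 1.17). The same held for Ddit3 with the combination (-0.48 to -0.28). At the limit of 15 no equal-depth ratio was computed.

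Psat1 and Phgdh were higher in cycling cells of every library. At 15 cycle UMIs, Psat1 measured 39.5 CPM in cycling and 16.3 CPM in non-cycling cells with sIL-2, 39.4 and 20.01 CPM with Trikine, and 50.1 and 25.3 CPM with the combination. The log2 ratios were 1.27, 0.98 and 0.99. Phgdh measured 85.6 and 35.5 CPM, 81.0 and 47.5 CPM, and 89.5 and 46.1 CPM in the same order, with log2 ratios of 1.27, 0.77 and 0.96. Non-cycling cells with sIL-2 had the lowest level of both genes.

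Slc7a5 was moderately higher in cycling cells, with log2 ratios of 0.38, 0.29 and 0.55 at the limit of 15. Asns had ratios of 0.27 with sIL-2, -0.02 with Trikine and 0.42 with the combination, and the Trikine interval included 0 (-0.15 to 0.10). Ddit3 and Slc3a2 were lower in cycling cells at this limit. Ddit3 measured 20.3 CPM in cycling and 28.96 CPM in non-cycling cells with sIL-2, 24.6 and 36.6 CPM with Trikine, and 19.0 and 26.8 CPM with the combination. Its log2 ratios were -0.51, -0.57 and -0.495, the last just short of the fold. Slc3a2 had ratios of -0.44, -0.51 and -0.23, and Atf4 of -0.19, -0.36 and -0.09. The Trib3 intervals included 0 in each library. Over 10 other settings for cycling, the Ddit3 ratio with sIL-2 ranged from -0.51 to 0.05. The Atf4 ratio kept its sign in 7 of 10 with sIL-2 and in 7 of 10 with the combination. Slc7a5 and Slc3a2, whose products pair at the membrane, thus had ratios of opposite sign.

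In counts, at the limit of 6 cycle UMIs 2 of 8 members were called higher and 0 lower with sIL-2, against 7.94% and 2.09% of all genes outside the cycle lists. The counts were 2 and 0 with Trikine, against 10.3% and 3.22%, and 3 and 0 with the combination, against 11.2% and 7.15%. At the limit of 15 they were 2 higher and 1 lower with sIL-2, against 13.7% and 10.7%, 2 higher and 2 lower with Trikine, against 12.7% and 7.3%, and 3 higher and 0 lower with the combination, against 11.6% and 10.3%. The members called higher were Psat1 and Phgdh in each library, joined by Slc7a5 with the combination. Those called lower at 15 were Ddit3 with sIL-2, and Ddit3 and Slc3a2 with Trikine. The median ratio of the members at 15 was 0.06, -0.13 and 0.16, beside -0.01, 0.01 and -0.01 over all genes.

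**Figure D2:**
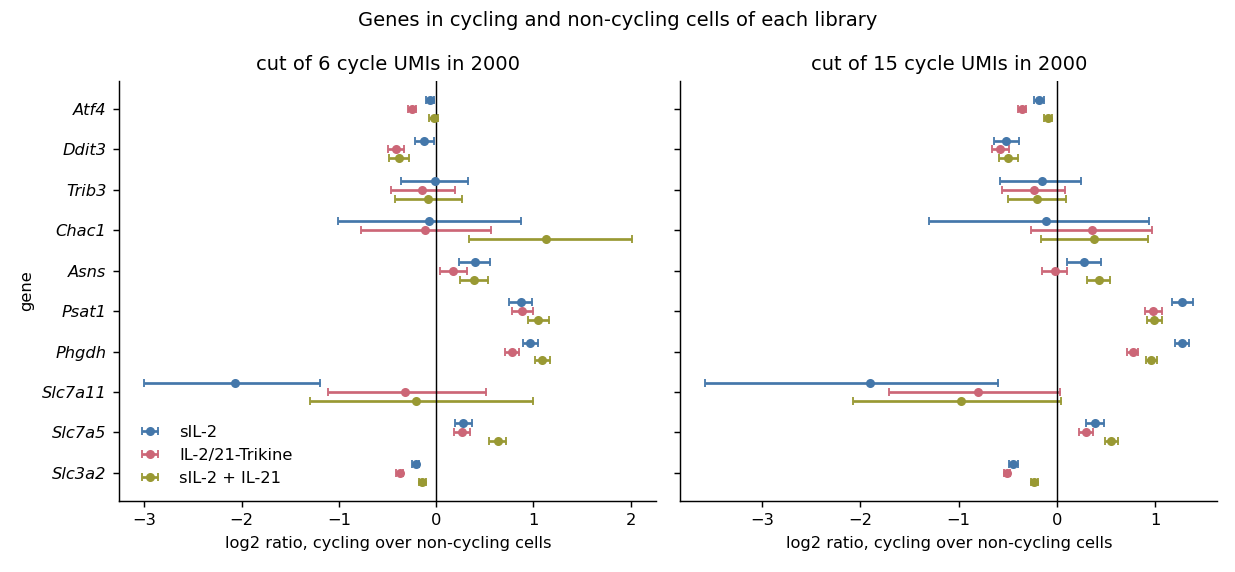
Log2 ratio of each gene for cycling over non-cycling cells in the 3 libraries, at limits of 6 (left) and 15 (right) cycle UMIs in 2000, with bars for the 95% interval of counting error. Psat1 and Phgdh lie to the right of 0 in every library, Ddit3 and Slc3a2 to the left, and the bars of Chac1 and Slc7a11 are wide because few UMIs were counted.

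With sIL-2, Psat1 stayed between 14.99 and 16.02 CPM up to 9 cycle UMIs, then measured 24.6 CPM at 10 to 14, 38.4 CPM at 15 to 29 and 40.8 CPM at 30 or more. Phgdh in the same library went from 27.4 CPM at 0 to 2 cycle UMIs to 88.9 CPM at 15 to 29, and measured 81.7 CPM above. Asns was highest in a middle bin, at 16.3 CPM in the bin of 10 to 14 with sIL-2, 15.6 CPM in the same bin with Trikine and 19.1 CPM in the bin of 15 to 29 with the combination. Ddit3 and Slc3a2 were lowest in the top bins, with 1 exception for Ddit3 in the Trikine library, where the bin of 15 to 29 was lowest at 23.0 CPM.

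**Figure D3:**
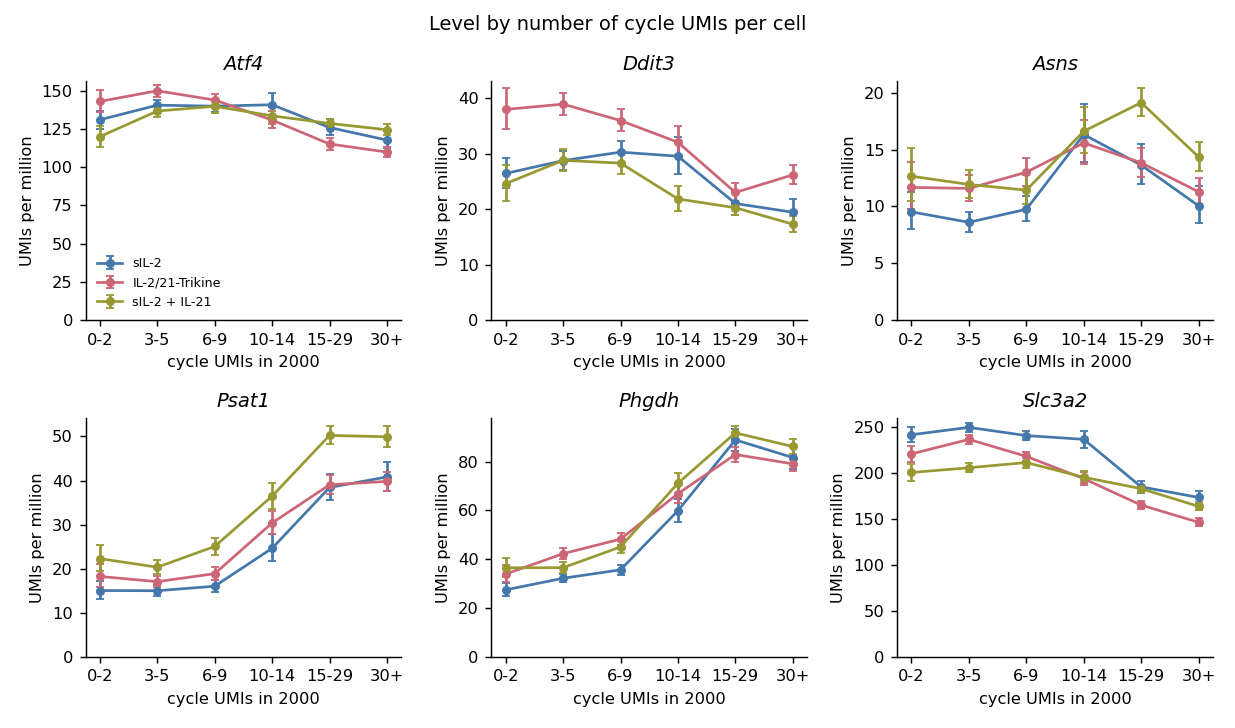
Level of 6 genes by the number of cycle UMIs per cell in the 3 libraries, in CPM from 0, with bars for the 95% Poisson interval. Psat1 and Phgdh climb between the bins of 6 to 9 and 15 to 29, Asns is highest in a middle bin, and Ddit3 and Slc3a2 are lower on the right than on the left. Atf4 is lower on the right than in the middle, but with sIL-2 + IL-21 it is 120 CPM in the leftmost and 124 CPM in the rightmost bin.

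Among cells at or over 15 cycle UMIs, those with more S than G2/M UMIs numbered 138, 497 and 406 and those with more G2/M UMIs 845, 2349 and 2783. Ddit3 was lower in the S-rich cells, at 12.4, 16.1 and 13.4 CPM, than in the G2/M-rich cells, at 21.7, 26.2 and 19.6 CPM, with log2 ratios of -0.81, -0.70 and -0.55. Atf4 was also lower in S-rich cells, by ratios of -0.33, -0.12 and -0.22. Phgdh was higher there with sIL-2 and Trikine (0.34 and 0.27), and with the combination its interval included 0 (-0.03 to 0.17). For Psat1 all 3 intervals included 0.

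Across single cells the relation with cycling was weak, and in counts as sparse as these a weak correlation is no finding. Spearman's rho with the cycle UMIs was 0.07, 0.11 and 0.12 for Phgdh and 0.06, 0.08 and 0.10 for Psat1 over 7494, 11524 and 9434 thinned cells, which share a library, and between -0.08 and 0.06 for the other members. At this depth a median of 1 of the 10 genes was detected per cell, and 37.7% to 40.0% of cells had none. Of 45 pairs of genes, 18 had at least 10 cells expected to hold both in every library. For 3 of these 18 pairs the observed number exceeded the expected one beyond its interval in every library. They were Atf4 with Ddit3 (ratios of 1.23, 1.27 and 1.45), Ddit3 with Slc3a2 (1.21, 1.17 and 1.34) and Phgdh with Slc7a5 (1.54, 1.33 and 1.42). For 0 of the 18 was the observed number below in all libraries. In the first 2 pairs both genes had ratios below 0 in cycling cells at the limit of 15, and in the last both had ratios above 0. Asns with Slc7a5 (2.84, 2.05 and 1.76) and Asns with Phgdh (2.998, 1.62 and 1.52) had under 10 expected cells with sIL-2. Their intervals also lay above 1 in every library. The share of all gene pairs with such an excess was not computed, so these counts have no background.

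The cells were clustered without the members, the pathway lists or the class markers, which gave 11 clusters. Other genes of the cycle lists were not left out, so the proliferating-like cluster is not independent of the cycle score. The rebuilt classes are not the study's own. They are named only where class markers led, and a cluster against the rest is a description without a test. The proliferating-like cluster (led by histone genes, Nusap1 and Kif11) held 34.6%, 42.3% and 49.4% of all Psat1 UMIs and 33.6%, 38.0% and 48.7% of all Phgdh UMIs. These shares also depend on the size and depth of the cluster in each library. It held 16.9%, 25.0% and 35.8% of all Atf4 UMIs, although Atf4 had log2 ratios over the other T cell clusters of -0.20, -0.29 and -0.03. There Psat1 stood at 40.2 CPM with sIL-2, 40.4 CPM with Trikine and 51.3 CPM with the combination, and the log2 ratio over the other T cell clusters was 1.18, 0.85 and 0.77.

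The ISG-like cluster, led by interferon-stimulated genes such as Ifit3 and Ifit1, held 1628 cells with sIL-2, 1828 with Trikine and 933 with the combination. Its part in the ratios between libraries was not tested. This cluster had another arrangement. Ddit3 was highest there in each library, at 43.4, 54.5 and 42.7 CPM, with log2 ratios over the other T cell clusters of 0.82, 0.87 and 0.95, although its interval overlapped that of the next cluster. Slc3a2 was likewise highest there, at 313, 291 and 280 CPM, but its interval overlapped that of the next cluster with sIL-2 (303 CPM) and with Trikine (287 CPM). Asns was lowest there, at 1.97, 3.42 and 4.49 CPM, with ratios of -2.54, -1.98 and -1.78, and so was Psat1, at 6.46, 9.31 and 7.81 CPM, with ratios of -1.89, -1.65 and -2.32. For both genes the interval overlapped that of a cluster of low depth in each library. With the combination the Asns interval also overlapped that of the stem-like cluster, described below. Asns was also low in that stem-like cluster, at 4.44, 6.90 and 5.93 CPM. Phgdh and Slc7a5 were lower in the ISG-like cluster than in the other T cell clusters together, with ratios of -0.92 to -1.41 and -0.66 to -0.80. In a finer clustering with a wider ISG-like class, the ratios were 0.50, 0.62 and 0.997 for Ddit3, -1.35, -1.29 and -1.40 for Asns, and -1.27, -1.11 and -1.84 for Psat1. That class was not highest for Ddit3 (33.3, 45.8 and 43.3 CPM) or Slc3a2 (287, 267 and 268 CPM). Both were higher in each library in an unnamed cluster of the finer clustering, given under other observations.

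The early activated-like cluster, led by the cytokine genes Il3 and Il2 and by Ccl3, had high Asns, at 24.4, 27.7 and 31.1 CPM (ratios of 1.42, 1.28 and 1.12), and high Slc7a5, at 67.1, 61.1 and 73.1 CPM (ratios of 0.98, 0.83 and 0.66). Atf4 had log2 ratios there of 0.34, 0.43 and 0.50. In a coarser clustering, whose early activated-like cluster was larger, the Asns ratios were 0.90, 1.25 and 0.46 and the Slc7a5 ratios 0.64, 0.67 and 0.17. An unnamed cluster led by Ccl4 and Crabp2, with Gnl3 and Srm, had Atf4 at 201, 199 and 204 CPM and Asns at 34.1, 27.2 and 25.0 CPM. Its Asns interval overlapped that of the early activated-like cluster with Trikine and with the combination. Phgdh in this unnamed cluster measured 67.3, 80.9 and 59.2 CPM, against 84.7, 79.7 and 90.9 CPM in the proliferating-like cluster. With Trikine these Phgdh intervals overlapped. The stem-like cluster, with Dapl1 and Tcf7 among its leading genes, had the lowest Slc7a5 of any cluster in each library, at 17.1, 20.1 and 18.7 CPM. With Trikine its interval overlapped that of the ISG-like cluster (23.8 CPM).

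**Figure D4:**
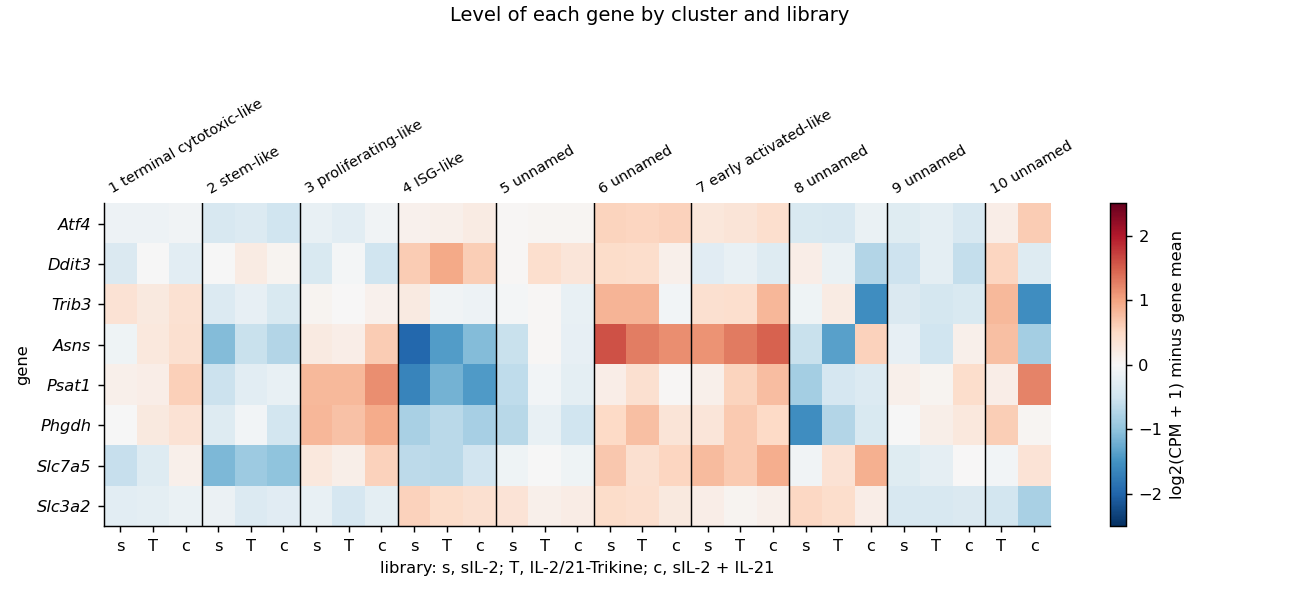
Level of the 8 genes with a mean of at least 1 CPM by cluster and library, as log2(CPM + 1) minus the gene's mean over the columns, for clusters with at least 50 cells in a library. Red marks higher and blue lower values. Asns is low in the ISG-like columns and high in clusters 6 and 7. Psat1 and Phgdh are high in the proliferating-like columns, and Phgdh also in cluster 6. Clusters 8 and 10 are of low depth.

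Over 28 pools of a cluster and a library with at least 100 cells each, Asns followed the mean of the other members most closely (Pearson r = 0.87), and r was -0.22 for Ddit3, -0.12 for Slc7a11 and -0.06 for Slc3a2. The pools share libraries and their cells, so this is a description. Among 5686 other genes with a mean of at least 20 CPM, those most like the mean of the 10 members were Hnrnpc, Lyar, Hsp90aa1, Rpf2, Srm, Cct6a, Pa2g4, Ptges3, Eif4e and Hspd1, with r of 0.916 to 0.936 over the same pools.

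Other genes of the pathway were counted by list, as a description beside the share of all genes called above. That share was 3.45% higher and 7.42% lower for Trikine over sIL-2, and 4.65% and 5.66% for Trikine over the combination. For sIL-2 over the combination it was 11.3% and 7.29%. In lists this short, 1 called gene lies near such shares, and these shares are the background of this and the next paragraph. The 9 of 12 bZIP partners and further ATF4 targets that passed the filter held 3 genes called lower for Trikine over the combination. These were Jdp2, a bZIP repressor (17.4 against 29.4 CPM, log2 ratio -0.76), Ddit4, an inhibitor of mTORC1 (54.4 against 90.4 CPM, -0.73), and the leucine sensor gene Sesn2 (4.68 against 6.75 CPM, -0.53). Sesn2 was also the 1 gene called lower for Trikine over sIL-2 (4.68 against 7.43 CPM, -0.67). In that list 1 was called higher for sIL-2 over the combination, the factor gene Cebpb (67.5 against 46.4 CPM, 0.54). Among 9 eIF2 kinases, cofactors and phosphatase subunits, Eif2ak3, which encodes the endoplasmic reticulum stress kinase PERK, was called lower for Trikine over sIL-2 (63.2 against 93.1 CPM, -0.56). For sIL-2 over the combination, 2 of them were called higher, Eif2ak2, which encodes the double-stranded RNA sensor PKR (43.6 against 30.5 CPM, 0.51), and Ppp1r15a, which encodes the stress-induced phosphatase subunit GADD34 (101 against 66.0 CPM, 0.62).

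All 20 cytosolic aminoacyl-tRNA synthetases passed the filter and 0 were called in any comparison, with medians of 0.09, -0.08 and -0.13. Of 14 further genes of serine, one-carbon and nonessential amino acid synthesis 9 passed, with medians of 0.23, -0.02 and -0.14. For sIL-2 over the combination, 1 of them was called lower, the serine hydroxymethyltransferase gene Shmt1 (9.83 against 14.03 CPM, -0.51), and the mitochondrial folate enzyme gene Mthfd2 measured 84.6 against 118 CPM (-0.48). Of 11 other amino acid transporters 7 passed, and 1 was called higher for sIL-2 over the combination, Slc43a2 (8.91 against 6.30 CPM, 0.50). In that list the glutamine transporter gene Slc1a5 measured 126 CPM with sIL-2, 104 CPM with Trikine and 99.7 CPM with the combination. Of 14 endoplasmic reticulum chaperone and unfolded protein genes, Ern1, which encodes the stress sensor IRE1, was called lower for Trikine over the combination (67.2 against 112 CPM, -0.74), and Dnajb9, a cochaperone gene, was called higher for sIL-2 over the combination (32.2 against 21.5 CPM, 0.58).

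In cycling cells at the limit of 15, 13.7%, 12.7% and 11.6% of all genes were called higher with sIL-2, Trikine and the combination, and 10.7%, 7.3% and 10.3% lower, which is the background of the counts that follow. In these libraries 5, 3 and 4 of the 9 serine and one-carbon genes were called higher and 0 lower, with median log2 ratios of 0.52, 0.37 and 0.48. Shmt1, Mthfd1 and Mthfd2 were called in every library, with Shmt1 ratios of 1.25, 0.83 and 1.40. The synthetases had 3, 2 and 3 of 20 called higher and medians of 0.16, 0.07 and 0.24, and the valine and methionine synthetase genes Vars and Mars1 were called in each library. The other transporters had 0 of 7 called in either direction, with medians of -0.31, -0.17 and -0.09. Of the 14 chaperone genes 4, 2 and 1 were called higher and 1 lower in each library, the latter being Dnajb9 (ratios of -0.93, -0.86 and -0.88). Of the 9 eIF2 genes 0 were called higher and 1, 2 and 1 lower, with Ppp1r15a among them in each library (-0.70, -0.64 and -0.76). Of the 9 partners and further targets 0 were called higher and 2, 1 and 0 lower, with the stress-induced bZIP gene Atf3 at -1.02 with sIL-2 and -0.72 with Trikine. Genes outside the rule for named genes (Sesn2, Slc43a2, and those of the cycling lists) were named after their values were seen.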

How the data were processed

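UMIs per gene and cell were measured by 10x 3′ single-cell RNA-seq in 3 libraries of sorted T cells. The authors deposited raw UMI counts, made with Cell Ranger 9.0.0 per the file headers, with intronic reads included. The submitters' processing notes list mm10 while the study's methods name GRCm39, so the build of the counts is uncertain. Cells with 500 to 120000 UMIs and at most 20% mitochondrial UMIs were kept, which differed from the number the study states by 1 cell in the sIL-2 + IL-21 library. No doublet caller was run. UMIs were summed per library, scaled to CPM, and compared as log2 ratios with a fold of 0.5 among genes with a mean of at least 1 CPM. Intervals of 95% (Poisson, Clopper-Pearson for shares, binomial for ratios) cover counting error only. The study's Wilcoxon test over cells was not used, since cells of 1 library are not replicates. Libraries held 130200802 to 168041089 UMIs. Cells were clustered with scanpy 1.11.5 (2000 genes, 50 components, Leiden resolution 1), leaving out the members, pathway lists and class markers. Scripts ran in Python 3.11.15 with numpy 2.4.6 and scipy 1.17.1, with TMM factors from edgeR 4.0.16 as an alternative, and were tested on simulated data. Other alternatives changed cell limits, scaling, thinning, cycle limits and clustering, or left out the 10% of cells with the most UMIs.

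The members and lists were chosen with earlier results of these data known. Named genes were all members, the 2 highest and 2 lowest of each pathway list with a mean of at least 10 CPM as far as the text needed them, the 10 genes most alike, and cycle and marker genes used as checks.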

Additional observations from a re-analysis of the deposited data

Results flagged for a closer look

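Barcodes outside the limits on cells, which no comparison used, numbered 45 with sIL-2, 51 with Trikine and 73 with the combination of sIL-2 and IL-21. In 5 cases a member's level in them had an interval above its level in the kept cells. Slc7a5 measured 55.1 CPM against 36.9 CPM with sIL-2, 62.4 CPM against 36.7 CPM with Trikine, and 71.6 CPM against 47.4 CPM with the combination. Psat1 measured 40.6 CPM against 27.6 CPM with Trikine, from 41 UMIs. Slc7a11 measured 9.45 CPM against 0.661 CPM with sIL-2, from 18 UMIs. In 1 case the interval lay below, for Slc3a2 at 141 CPM against 196 CPM with Trikine. These barcodes hold both very shallow and very deep ones, and what they are was not tested.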

How the results depend on the processing

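With 1 library per group, no library could be left out, and no paired analysis was possible because the libraries carry no replicate numbers. Of 388 member ratios between libraries under alternatives, 350 kept their sign, but 133 moved outside the counting interval of the main value and 8 more reversed a called value. Of 240 ratios with cycling 221 kept their sign and 114 moved, and of 42 between clusters 42 and 11. Percentages below are the share of all genes called in the same direction under the same setting. For Trikine over sIL-2, members called higher went from 0 to 1 with each cell weighing equally (6.24%), 2 with a fold of 0.3 (9.25%) and 1 with no filter on low values (12.0%), and lower from 0 to 1 with no filter (16.4%). For Trikine over the combination of sIL-2 and IL-21, higher went from 0 to 1 with a fold of 0.3 (11.2%) and 1 with no filter (14.5%), and lower from 0 to 1 without the 10% of cells with the most UMIs (6.62%), 1 in thinned cells (7.91%) and 2 with a fold of 0.3 (11.9%). For sIL-2 over the combination, higher went from 0 to 1 with no filter (18.8%), and lower from 3 to 0 in non-cycling (5.74%) and 1 in cycling cells (4.7%) at the limit of 6, and to 1 in cells under (6.35%) and 1 in cells at or over 15 cycle UMIs (2.7%). Slc7a5 was called lower in addition with a fold of 0.3 (14.7%), and Chac1 with no filter (15.3%). In cycling cells, members called lower went from 0 to 1 with sIL-2 at a limit of 15 (11.1%), and with Trikine to 1 at 10 (6.26%) and 2 at 15 (7.74%), the same without cells carrying 5 or more myeloid UMIs (11.1% and 7.59%), and with the combination to 1 at 10 (10.4%). Calls in the higher direction also changed. At its highest, Asns reached 0.64 with sIL-2 and 0.54 with the combination, and Trib3 reached 0.64 with the combination. Slc7a5 with the combination fell to 0.41 at its lowest, while Psat1 and Phgdh stayed past the fold in every library. Under these settings 6.66% to 13.1% of all genes were called higher with sIL-2 and 9.69% to 13.9% with the combination. These shares are over the genes that passed at the limit of 6. The limit of 15, the classes it makes and the myeloid alternative were chosen after seeing the data. Members whose shares of positive cells did not overlap numbered 2 higher and 1 lower for Trikine over sIL-2 (4 higher at 5000 UMIs, beside 15.9% of all genes; 2 lower at 1000, beside 15.2%; 0 and 5 unthinned, beside 2.95% and 85.7%). For Trikine over the combination they numbered 1 and 2. There 0 were higher at 1000 (beside 8.76%), 3 lower at 5000 (beside 21.4%), and 0 and 7 unthinned (beside 2.05% and 88.2%). For sIL-2 over the combination they numbered 1 and 3. There 3 were higher and 4 lower at 5000 (beside 28.8% and 21.5%), 2 lower at 1000 (beside 11.6%), and 2 and 5 unthinned (beside 31.4% and 28.4%). These counts are of all 10 members. The Chac1 ratio of Trikine over sIL-2 went from 0.74 to -0.21 with each cell weighing equally. The Slc7a11 ratio of Trikine over sIL-2 went from -0.74 to 2.06 without clusters of another cell type or of low depth, 0.79 in cycling cells, 0.73 at or over 15 cycle UMIs and 0.56 without myeloid-marker cells. That of sIL-2 over the combination went from 1.55 to -1.68, -0.11 in cycling cells and -0.54 without myeloid-marker cells. Beyond the samples or genes each alternative removes, the cause was not tested. Depth limits Chac1, Slc7a11 and Trib3.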

Other observations

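A finer clustering (Leiden resolution 1.5) held an unnamed cluster of 540 cells with Ddit3 among its 10 leading genes, beside Atp6v0d2, Hspb1 and Gpnmb, although the members had been left out when clusters were made. There Ddit3 measured 109 CPM with sIL-2 (145 cells), 108 CPM with Trikine (324 cells) and 118 CPM with the combination of sIL-2 and IL-21 (71 cells). Atf4 measured 261, 248 and 259 CPM and Slc3a2 496, 482 and 422 CPM in the same order. Asns measured 9.46, 10.6 and 7.85 CPM, and Psat1 6.55, 10.1 and 3.92 CPM. The cluster was picked for its leading gene, so these levels are a description.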
